A study of Mus musculus with 20 samples.

Results

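Mammals cannot make linoleic or alpha-linolenic acid, and the liver converts these dietary fatty acids into arachidonic acid and docosahexaenoic acid by alternating desaturation and chain elongation in the endoplasmic reticulum. Desaturation is carried out by the Fads enzymes and the condensing step of elongation by the Elovl enzymes, each with its own preferred substrates. The reduction and dehydration steps that complete an elongation cycle are shared by all elongases. The enzymes described here were 9 genes of that machinery, Fads1, Fads2, Fads3, Elovl1, Elovl2, Elovl3, Elovl5, Hsd17b12 and Tecr, chosen by name. They had 20 of the 45037 probe sets tested, and each was read from its brightest probe set, as were all 18193 genes.

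Liver RNA from 20 mice was hybridized to Affymetrix Mouse 430 2.0 arrays, 1 array per individual liver. The groups were Scd1+/+ (wild type) on chow, Scd1+/+ on a very low fat diet (VLF, TD03045 from Harlan Teklad), Scd1-/- (knockout) on chow and Scd1-/- on the VLF diet, with 5 livers each. Scd1 makes monounsaturated fatty acids from saturated ones, and the study asked which liver genes respond when the knockout meets the VLF diet. The sources used here do not give the strain, age, sex, feeding state or weeks on diet, nor the position of the Scd1 probe set relative to the deletion.

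Deposited Scd1 intensity was 25.9 to 57.4 in the 10 knockout livers and 6522 to 20108 in the 10 wild-type livers, so the genotype labels matched it. Array medians were 32.3 to 36.6. No pair of arrays held identical values, and the mean absolute log2 difference within a group was 0.106 to 0.199. Wild-type VLF liver 3 stood apart in Xist, the RNA of the inactive X chromosome, at 11.9 against 1095 to 1915 in the other 19 arrays. The 9 Y-linked probe sets did not exceed 18.5 on any array. Without that liver none of the 27 changes of these genes in the comparisons it enters moved across the threshold. The summed level of 6 hepatocyte markers was 88220 to 94947 over all groups. Some of these markers lie near the top of the intensity range, where quantile normalization holds values alike across arrays. Adipoq, an adipocyte marker, was at the floor in every liver.

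Promoter windows of 7 of the 9 genes were found in the RefSeq table (GRCm38.p6), covering 250 bases before to 50 after a start site. Those of 3 genes that fell in the knockout on the VLF diet and of Fads3, the neighbour of Fads2 that rose, are shown because these genes moved together or apart. Capitals mark the letters CCAAT (the NF-Y box) and GGGCGG (the GC box) on either strand, so ATTGG and CCGCCC are the same motifs read from the other strand.
Fads2, chr19:10101454-10101753, minus strand: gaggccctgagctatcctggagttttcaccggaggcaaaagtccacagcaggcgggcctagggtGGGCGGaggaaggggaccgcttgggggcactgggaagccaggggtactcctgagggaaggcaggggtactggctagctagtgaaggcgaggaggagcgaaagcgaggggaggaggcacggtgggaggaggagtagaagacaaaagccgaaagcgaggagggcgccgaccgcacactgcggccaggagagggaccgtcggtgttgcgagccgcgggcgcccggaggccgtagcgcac
Elovl5, chr9:77917115-77917414, plus strand: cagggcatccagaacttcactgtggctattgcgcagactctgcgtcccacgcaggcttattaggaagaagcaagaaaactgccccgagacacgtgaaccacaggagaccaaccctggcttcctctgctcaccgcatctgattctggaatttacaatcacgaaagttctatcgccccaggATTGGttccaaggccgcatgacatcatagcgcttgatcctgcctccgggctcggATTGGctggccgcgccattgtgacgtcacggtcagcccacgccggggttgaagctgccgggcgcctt
Tecr, chr8:83594442-83594741, minus strand: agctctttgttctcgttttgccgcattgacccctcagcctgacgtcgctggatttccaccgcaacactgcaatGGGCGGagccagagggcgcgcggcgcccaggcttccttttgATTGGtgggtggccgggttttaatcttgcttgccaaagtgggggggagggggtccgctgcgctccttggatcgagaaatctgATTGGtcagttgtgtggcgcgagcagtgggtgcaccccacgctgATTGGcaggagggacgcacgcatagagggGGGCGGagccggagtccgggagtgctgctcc
Fads3, chr19:10041298-10041597, plus strand: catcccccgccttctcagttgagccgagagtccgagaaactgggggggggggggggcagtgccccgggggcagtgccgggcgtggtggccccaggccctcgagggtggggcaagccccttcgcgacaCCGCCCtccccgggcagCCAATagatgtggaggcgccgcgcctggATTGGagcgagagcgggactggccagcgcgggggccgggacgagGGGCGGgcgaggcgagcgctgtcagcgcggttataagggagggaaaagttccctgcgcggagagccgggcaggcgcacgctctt

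The Tecr window held CCAAT 3 times, those of Elovl5, Fads3 and Hsd17b12 held it 2 times each, and that of Fads2 held it 0 times. Elovl2, which also fell, had 2 windows with 0 matches each, and of the 2 windows of Elovl1, which rose, 1 held a single match. Of all 32851 promoter windows of this length, 37.4% held CCAAT and 35.7% held GGGCGG on either strand. Further searches used TCACNCCAC (an SRE-like sequence of SREBP targets) and TATAAA on both strands. Neither was found in the 9 windows of the 7 genes, against 1.24% and 13.6% of all windows, which says only that these letters are not in these windows. In the annotation, Fads3, Fads2 and Fads1 lie in that order on chromosome 19, with a noncoding RNA gene and a pseudogene between them and no other protein-coding gene.

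On the VLF diet the enzymes of polyunsaturated fatty acid synthesis were lower in the knockout than in wild type. Fads1, Fads2, Elovl2 and Elovl5 fell 4.79-fold, 4.68-fold, 3.06-fold and 2.57-fold, and the shared reductase Tecr fell 1.96-fold. Fads3 and Elovl1, whose known products are sphingoid bases and very-long-chain saturated and monounsaturated fatty acids, rose 2.40-fold and 1.61-fold. Of the 9 genes 5 were lower, 2 higher and 2 not called by limma at an adjusted p under 0.05 over all probe sets, beside 42.2% of all genes called in this comparison (23.0% lower and 19.2% higher). Over all genes, the split of 3487 higher and 4183 lower became 4157 and 3109 with median scaling only and 5092 and 957 with arrays centred on the hybridization controls. The median log2 change of the 9 genes was -0.97, against -0.02 for all genes. Knockout and wild-type livers did not overlap in 7 of the 9 genes and in 30.1% of all genes.

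**Figure D1:**
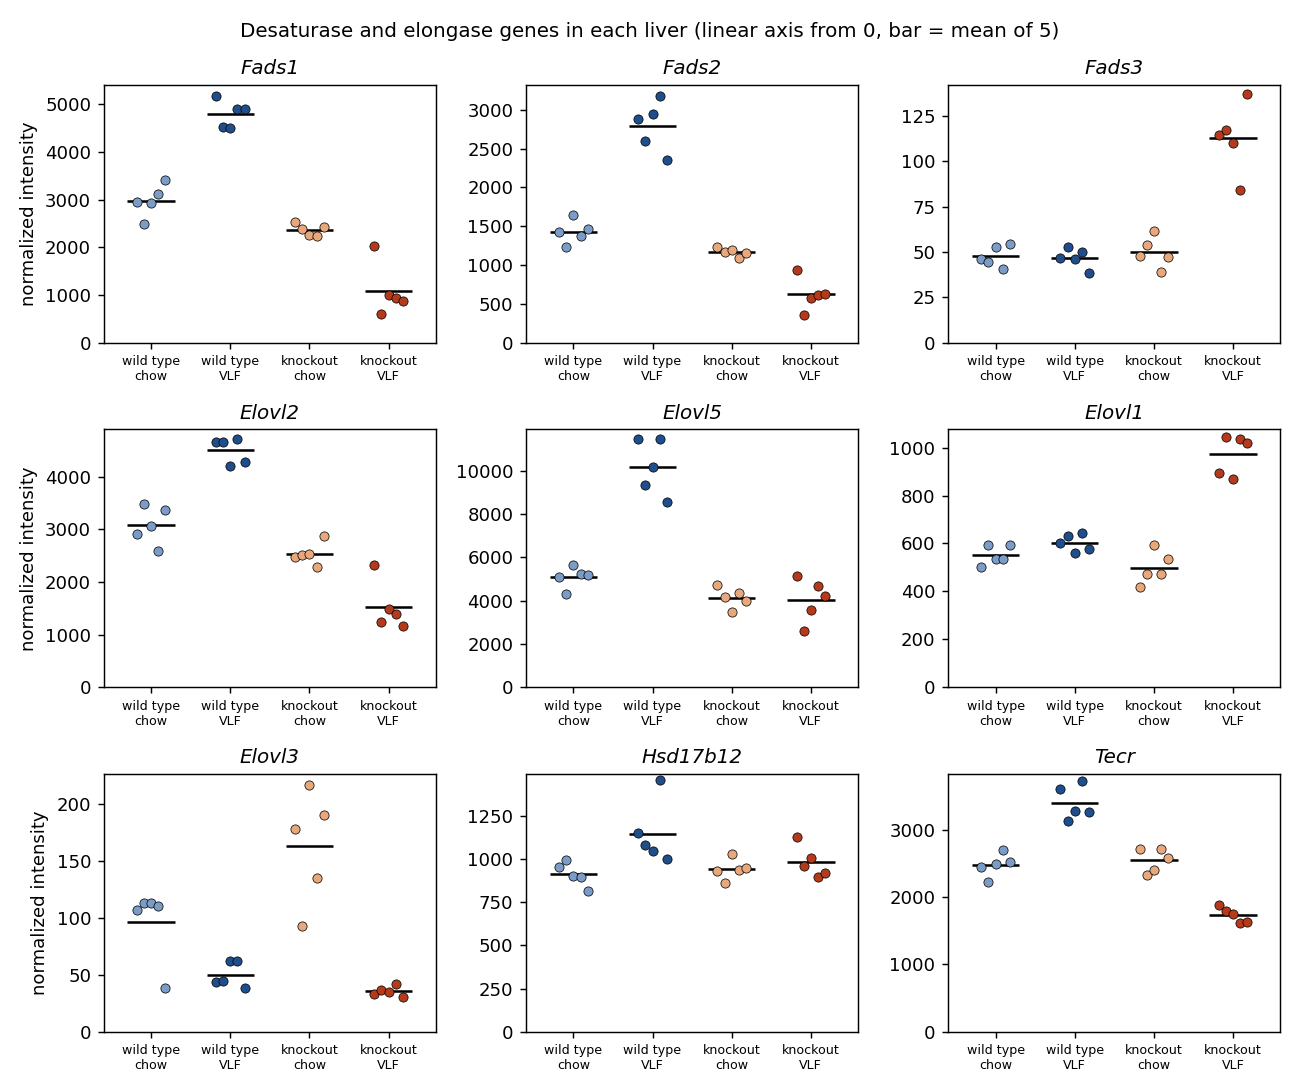
Normalized intensity (linear vertical axes from 0, which differ between panels) of the 9 genes in each liver, with 1 point per liver, 5 livers per group and a bar at the mean. Fads1, Fads2, Elovl2 and Tecr were highest in wild type on the VLF diet and lowest in the knockout on the VLF diet, whereas Fads3 and Elovl1 were highest in the knockout on the VLF diet.

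Fads2 carries out the first desaturation of linoleic and alpha-linolenic acid and is held to be the rate-limiting enzyme of the pathway. Its normalized intensity in the wild-type VLF livers was 2883, 2594, 2939, 3177 and 2355, and in the knockout VLF livers 941, 351, 579.6, 614 and 624. On chow it was 1426, 1231, 1651, 1374 and 1464 in wild type and 1227, 1174, 1188, 1092 and 1149 in the knockout. Every knockout liver on the VLF diet lay below every liver of the other groups, and every wild-type liver on the VLF diet lay above them. The log2 change between genotypes on the VLF diet was -2.23 ± 0.17 (estimate ± standard error, n = 5 and 5, limma adjusted p = 7.14e-09). On chow the normalized values of the genotypes lay narrowly apart, at most 1227 in knockout and at least 1231 in wild type. The deposited chow values overlapped (1113 to 1347 in knockout and 1183 to 1646 in wild type), and so did the genotypes on chow in the other Fads2 probe sets. The chow change of -0.29 ± 0.17 was not called (limma adjusted p = 0.355, 95% interval -0.64 to 0.07).

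Fads1 introduces the later double bond that gives arachidonic and eicosapentaenoic acid. Its intensity was 5175, 4519, 4499, 4896 and 4905 in the wild-type VLF livers and 2031, 594, 1011, 945 and 868 in the knockout VLF livers. In the chow livers it was 2956, 2481, 2928, 3117 and 3419 for wild type and 2534, 2381, 2261, 2233 and 2423 for the knockout. Knockout VLF liver 1 was the highest of its group and still below all other livers. The change on the VLF diet was -2.26 ± 0.20 (limma adjusted p = 6.33e-08), and that on chow was -0.33 ± 0.20 with overlapping groups (adjusted p = 0.397).

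Elovl5 elongates the product of Fads2, and Elovl2 acts on longer chains on the way to docosahexaenoic acid. Elovl2 intensity was 4666, 4656, 4209, 4720.4 and 4270.4 in the wild-type VLF livers against 2328, 1237, 1485, 1383 and 1172 in the knockout VLF livers. Its chow values were 2909.5, 3474, 3072, 2581 and 3369 in wild type and 2477, 2508, 2531, 2276 and 2868 in the knockout, and these groups overlapped. Knockout VLF liver 1 overlapped the knockout chow livers in Elovl2, and the other 4 lay below all of them. The genotype change of Elovl2 was -1.61 ± 0.14 on the VLF diet (limma adjusted p = 3.15e-08) and -0.28 ± 0.14 on chow (adjusted p = 0.249).

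Elovl5 intensity was 11468, 9336, 10154, 11468 and 8553 in the wild-type VLF livers and 5121, 2614, 3591, 4684 and 4209 in the knockout VLF livers. On chow it was 5076, 4330.1, 5661, 5213 and 5175 in wild type and 4732, 4185, 3474, 4348 and 3965 in the knockout. The wild-type VLF livers stood above all others, and the other 3 groups overlapped one another. The change between genotypes was -1.36 ± 0.14 on the VLF diet (limma adjusted p = 5.01e-07) and -0.30 ± 0.14 on chow (adjusted p = 0.238).

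Tecr catalyses the last reduction of each elongation cycle and Hsd17b12 the first. Tecr had the smallest standard error of the 9 genes. Its intensity was 3605, 3127, 3278, 3724 and 3266 in the wild-type VLF livers and 1880.2, 1790.0, 1747, 1612 and 1624 in the knockout VLF livers. The chow livers lay between them without overlap, at 2224 to 2695 in wild type and 2332 to 2720.0 in the knockout. The change of Tecr was -0.97 ± 0.06 on the VLF diet (limma adjusted p = 1.20e-09) and 0.04 ± 0.06 on chow (adjusted p = 0.929). Hsd17b12 had 1151, 1079, 1046, 1461 and 1000.3 in wild type and 1128, 958, 1008, 899 and 919 in the knockout on the VLF diet. These groups overlapped, and its change of -0.22 ± 0.09 was not called (adjusted p = 0.0732, 95% interval -0.40 to -0.03). The call was gained without knockout VLF liver 1 (-0.27, adjusted p = 0.0318) or wild-type VLF liver 5 (-0.26, adjusted p = 0.0383). With arrays centred on the hybridization controls the Hsd17b12 change turned to 0.12 ± 0.15, so its direction was not settled.

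Fads3 acts on sphingoid bases, and Elovl1 supplies very-long-chain acyl groups to sphingolipids. Fads3 was dim, with 46.7, 52.6, 46.0, 49.9 and 38.3 in the wild-type VLF livers and 115, 117, 110.4, 84.3 and 137 in the knockout VLF livers. Its chow values were 40.6 to 54.4 in wild type and 38.9 to 61.7 in the knockout, so the knockout VLF livers lay above all other livers. The rise was 1.26 ± 0.13 (limma adjusted p = 3.91e-07), from a level close to the array medians, where background limits the size of a fold. Averaged over its 3 probe sets the rise was 0.66 (adjusted p = 1.83e-08), and the rise under the diet in knockout described below, 1.17 from the brightest probe set, was 0.71.

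Elovl1 intensity was 601, 629, 562, 644 and 577 in the wild-type VLF livers and 895, 1045, 867, 1037 and 1020.2 in the knockout VLF livers. On chow it was 503 to 593 in wild type and 417 to 594 in the knockout. No liver of another group reached the lowest knockout VLF liver. The rise on the VLF diet was 0.69 ± 0.08 (limma adjusted p = 2.50e-06), and 1.03 ± 0.15 with arrays centred on the hybridization controls.

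Elovl3 elongates saturated and monounsaturated chains and is best known from brown fat and skin glands. It was dim and varied within groups. Its intensity was 107, 113, 113, 110.2 and 38.7 in the wild-type chow livers, 43.5, 44.4, 62.5, 62.6 and 38.4 in the wild-type VLF livers, 178, 93.3, 217, 135 and 191 in the knockout chow livers and 32.9, 36.7, 35.0, 41.8 and 30.8 in the knockout VLF livers. Wild-type chow liver 5 lay among the VLF livers. Genotype changes were not called on the VLF diet (-0.48 ± 0.27, limma adjusted p = 0.205) or on chow (0.80 ± 0.27, adjusted p = 0.099), but without knockout chow liver 2 the chow change was called (0.99, adjusted p = 0.0439). Ucp1, the defining gene of brown fat, was dim and not called between the VLF groups (-0.13, adjusted p = 0.123).

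On chow limma called 0 of the 9 genes between genotypes, with 1 at an unadjusted p under 0.05 (Elovl3), beside 2.92% of all genes called (1.23% higher and 1.70% lower). With median scaling only, the split over all genes moved from 223 higher and 309 lower to 1258 and 234, and with arrays centred on the hybridization controls to 1 and 2. The median change was -0.16, against 0.00 for all genes. The groups lay apart in 1 gene, Fads2 (narrowly, and not in its deposited values), beside 6.12% of all genes. The chow estimates of Fads1, Fads2, Elovl2 and Elovl5 were each between -0.28 and -0.33. Each 95% interval included 0, but only narrowly for Elovl2 (upper end 0.008) and Elovl5 (upper end 0.003). With arrays centred on the hybridization controls the estimates were -0.39 ± 0.18, -0.31 ± 0.17, -0.35 ± 0.15 and -0.42 ± 0.15 in that order. None of these was called, with limma adjusted p from 0.193 to 0.34.

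**Figure D2:**
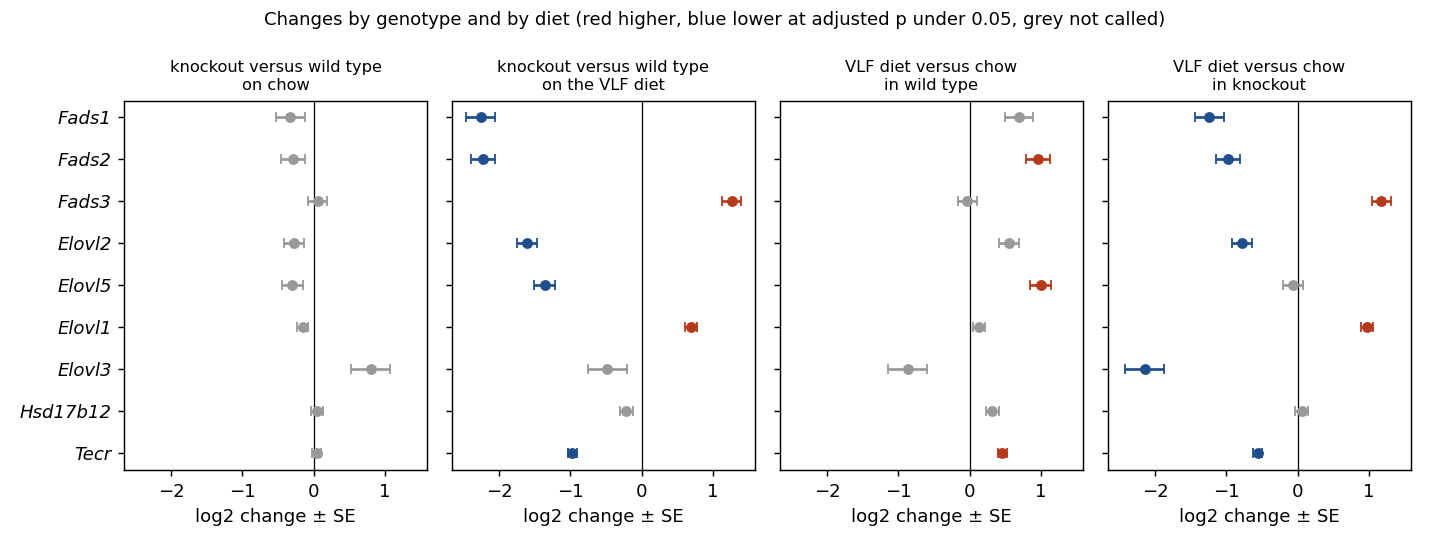
Log2 change with its standard error (horizontal axis) of each gene in the genotype comparison on chow and on the VLF diet and in the diet comparison in wild type and in knockout, with 5 livers per group. Red and blue points were called higher and lower by limma at an adjusted p under 0.05, and grey points were not called: 0 genes were called between genotypes on chow and 7 on the VLF diet.

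In wild-type livers the VLF diet raised Elovl5 2.00-fold (log2 change 1.00 ± 0.14, limma adjusted p = 0.00199), Fads2 1.95-fold (0.96 ± 0.17, adjusted p = 0.00728) and Tecr 1.37-fold (0.46 ± 0.06, adjusted p = 0.00159). These 3 of 9 genes were called higher and 0 lower, beside 1.58% of all genes called (0.797% higher and 0.781% lower, or 145 and 142 genes, against 118 and 57 with median scaling only). Fads1 (0.69 ± 0.20, adjusted p = 0.121), Elovl2 (0.55 ± 0.14, adjusted p = 0.0595) and Hsd17b12 (0.32 ± 0.09, adjusted p = 0.0986) were not called, although in each all 5 VLF livers exceeded all 5 chow livers. In all, the diet groups lay apart in 6 of the 9 genes and in 4.26% of all genes, and the median change was 0.46 against 0.00. The dimmer Fads1 probe set was called (0.83 ± 0.18, adjusted p = 0.0274). Elovl3 had a change of -0.87 ± 0.27 (adjusted p = 0.153), which without wild-type chow liver 5 became -1.17 and was called (adjusted p = 0.0079). The Tecr call was lost with arrays centred on the hybridization controls (0.47, adjusted p = 0.13).

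In knockout livers the VLF diet lowered Fads2 and Tecr, which it raised in wild type. Fads1 fell 2.36-fold (-1.24 ± 0.20, limma adjusted p = 9.15e-05), Fads2 1.96-fold (-0.97 ± 0.17, adjusted p = 0.000163), Elovl2 1.71-fold (-0.78 ± 0.14, adjusted p = 0.000197) and Tecr 1.47-fold (-0.56 ± 0.06, adjusted p = 1.47e-06). Elovl3 fell by 2.15 ± 0.27 on the log2 scale (adjusted p = 5.21e-06), to a level at the array medians, where background limits the size of a fold. Fads3 (1.17 ± 0.13, adjusted p = 1.03e-06) and Elovl1 (0.97 ± 0.08, adjusted p = 3.57e-08) rose. Elovl5 had a change of -0.06 ± 0.14 (adjusted p = 0.992, 95% interval -0.37 to 0.24), which turned to 0.27 with arrays centred on the hybridization controls. Of the 9 genes 5 fell, 2 rose and 2 were not called, beside 34.8% of all genes called (17.0% higher and 17.7% lower). Over all genes, the split of 3101 higher and 3223 lower became 6798 and 871 with arrays centred on the hybridization controls. The diet groups lay apart in 6 of the 9 genes and in 25.2% of all genes, and the median change was -0.56 against 0.00. With the control-based centring 4 of the 9 fell and 3 rose: the Tecr call was lost (-0.24, adjusted p = 0.091), Hsd17b12 was called (0.45, adjusted p = 0.023), and Fads2 (-0.56) and Elovl2 (-0.45) kept their calls at smaller size.

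**Figure D3:**
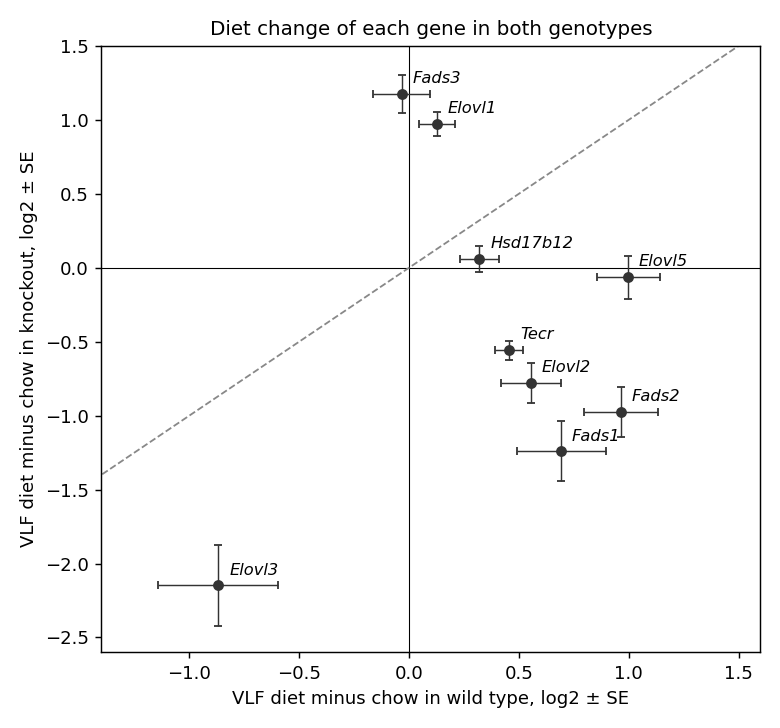
Log2 change from chow to the VLF diet in wild type (horizontal axis) and in knockout (vertical axis) for each of the 9 genes, with standard errors (5 livers per group) and a dashed line where both changes would be equal. Fads1, Fads2, Elovl2 and Tecr lay above 0 in wild type and below 0 in knockout, and Fads3 and Elovl1 lay near 0 in wild type and near 1 in knockout.

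The difference between the diet changes of both genotypes, tested as an interaction, was called for 8 of the 9 genes, 6 lower and 2 higher, beside 24.2% of all genes called (12.1% higher and 12.1% lower). Over all genes, the split of 2201 higher and 2200 lower became 3965 and 618 with arrays centred on the hybridization controls. Fads2 (-1.94 ± 0.24, limma adjusted p = 8.29e-06) and Fads1 (-1.93 ± 0.29, adjusted p = 6.56e-05) had the largest estimates, followed by Elovl2 (-1.33 ± 0.19) and Elovl3 (-1.28 ± 0.39, adjusted p = 0.0252). Elovl5 (-1.06 ± 0.20) and Tecr (-1.01 ± 0.09) were lower, and Fads3 (1.21 ± 0.18) and Elovl1 (0.84 ± 0.12) higher, with Fads3 at 0.72 when averaged over its probe sets. Hsd17b12 was not called (-0.26 ± 0.13, adjusted p = 0.193). With arrays centred on the hybridization controls the Elovl3 call was lost (-1.06, adjusted p = 0.113) and the Elovl5 estimate was -0.70 (adjusted p = 0.027).

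Against wild type on chow, the knockout on the VLF diet was lower in Fads1 (-1.57 ± 0.20), Elovl3 (-1.35 ± 0.27), Fads2 (-1.26 ± 0.17), Elovl2 (-1.06 ± 0.14) and Tecr (-0.52 ± 0.06) and higher in Fads3 (1.23 ± 0.13) and Elovl1 (0.82 ± 0.08). Averaged over its probe sets Fads3 was at 0.65, and with arrays centred on the hybridization controls Elovl1 was at 1.25. These are 7 of 9 genes called by limma, beside 49.3% of all genes (20.5% higher and 28.9% lower). Over all genes, the split of 3722 higher and 5252 lower became 4755 and 3730 with median scaling only and 5372 and 909 with arrays centred on the hybridization controls. The groups lay apart in 6 of the 9 genes and in 33.7% of all genes. Elovl5 (-0.36 ± 0.14) missed the threshold at an adjusted p of 0.0521, and passed it without knockout VLF liver 1 (-0.46, adjusted p = 0.0162), without knockout VLF liver 4 (-0.43, adjusted p = 0.0328) or without wild-type chow liver 2 (-0.42, adjusted p = 0.0363). With arrays centred on the hybridization controls 4 genes were lower and 3 higher, with Tecr lost (-0.28, adjusted p = 0.0664) and Hsd17b12 called (0.51, adjusted p = 0.0113). This comparison shares the 5 knockout VLF livers with the genotype comparison on that diet and with the diet comparison in knockout.

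Within an array, the gap between Fads1 and Fads2 was compared between genotypes on the VLF diet. The log2 difference Fads1 minus Fads2 within an array averaged 0.75 ± 0.24 (SD, n = 5) in the knockout and 0.79 ± 0.18 in wild type, a shift of -0.04 (two-sided exact permutation p = 0.794, adjusted p = 0.794). The difference Fads2 minus Fads3 was lower by a log2 value of 3.49 and Fads1 minus Fads3 by 3.52 in the knockout, given without a test because the separate genes already lay apart in opposite directions. For Elovl2 minus Elovl5 the shift was -0.25 (exact permutation p = 0.246, adjusted p = 0.328 over 4 pairs).

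The SD of normalized intensity was taken on the linear scale, where it depends on the level. In the knockout VLF livers it was above that in the wild-type VLF livers for 4 genes (Fads1, Fads3, Elovl1 and Elovl2) and below it for the other 5. Of those 5, Fads2 and Elovl5 spanned more on the log2 scale in knockout (8.46 to 9.88 and 11.35 to 12.32) than in wild type (11.20 to 11.63 and 13.06 to 13.49). Elovl3, Hsd17b12 and Tecr spanned less in knockout on that scale too. The SD of Fads1 was 549.6 around a mean of 1089.6 in the knockout and 287 around 4799 in wild type. That of Elovl2 was 467 around 1521 in the knockout and 244 around 4504 in wild type. Knockout VLF liver 1 was the highest of its group in Fads1, Fads2, Elovl2, Elovl5, Hsd17b12 and Tecr, and knockout VLF liver 2 was the lowest in Fads1, Fads2 and Elovl5. Leaving out any single array moved no called change of the 9 genes by over 1.5 times.

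Several probe sets of a gene gave the same direction between genotypes on the VLF diet. Of the 20 probe sets 11 were called lower, 5 higher and 4 not called. Of all genes, each read from its brightest probe set, 23.0% were lower and 19.2% higher. The other 2 Fads2 probe sets fell by 2.13 and 2.22, the other Fads1 probe set by 2.10, the other Elovl5 probe set by 1.35 and the other Tecr probe set by 1.09 on the log2 scale. The dimmer Hsd17b12 probe set was called (-0.42 ± 0.11, limma adjusted p = 0.00748), unlike the brightest. For Fads3 the other probe sets changed by 0.54 and, at the bottom of the range, by 0.19 (not called), and for Elovl1 by 0.68, 0.36 and 0.28 (the last not called). The brightest probe sets of Elovl1 and Elovl5 are of the type named x_at, which can read related transcripts.

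**Figure D4:**
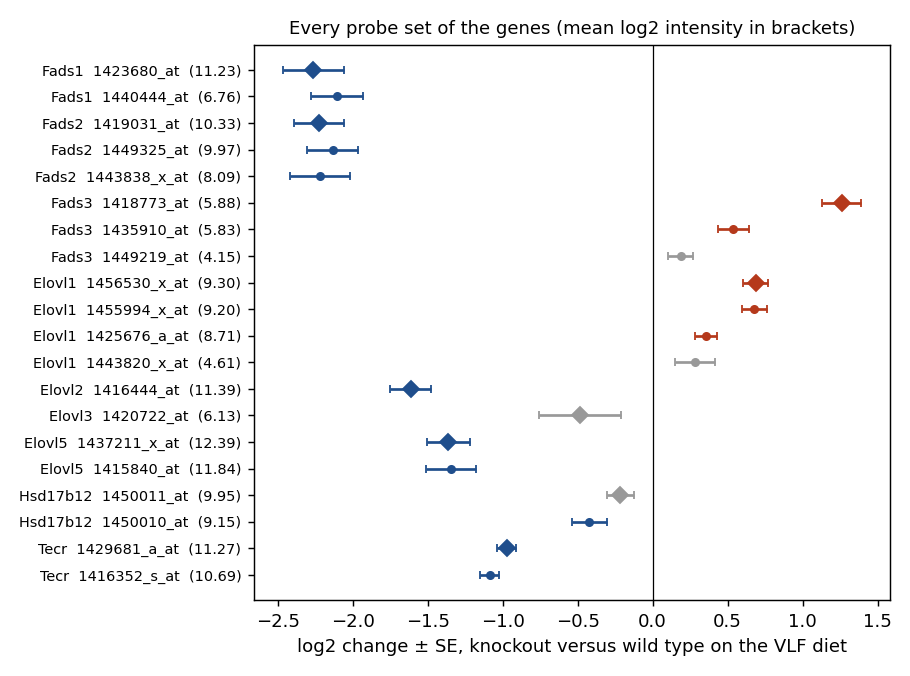
Log2 change with its standard error between VLF-fed knockout and wild-type livers (horizontal axis, 5 livers per group) for each of the 20 probe sets of the 9 genes, with the probe set name and mean log2 intensity on the vertical axis. Diamonds are the brightest probe set of a gene, red and blue were called higher and lower, and grey were not called.

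Other genes of elongation, desaturation and cytochrome b5 electron transfer, which do not form a single cycle, were mixed on the VLF diet. Of 15 such genes, 5 each were lower, higher and not called, and the median was -0.08, beside 23.0% of all genes lower and 19.2% higher. Elovl6, which elongates palmitate, fell by 3.84 ± 0.29 on the log2 scale (limma adjusted p = 7.02e-09). Cyb5b, a cytochrome b5 of the outer mitochondrial membrane, fell by 1.17 ± 0.07 (adjusted p = 3.76e-10), while Elovl7 (1.31 ± 0.08, adjusted p = 7.32e-10) and the cytochrome b5 reductase family gene Cyb5r1 (1.62 ± 0.17, adjusted p = 3.66e-07) rose. In wild type the VLF diet raised 2 of the 15, beside 0.797% of all genes called higher there. These were Elovl6 (2.27 ± 0.29, limma adjusted p = 0.00088) and Cyb5r3 (0.52 ± 0.09, adjusted p = 0.00688), the reductase that passes electrons to cytochrome b5.

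Docosahexaenoic acid synthesis ends with chain shortening in peroxisomes. All 10 measured genes of the peroxisomal list fell in the knockout on the VLF diet, beside 23.0% of all genes, with a median of -0.96 against -0.02 for all genes. Scp2, whose product includes a peroxisomal thiolase, fell by 0.87 ± 0.05 (limma adjusted p = 5.12e-10), the enoyl-CoA reductase gene Pecr by 1.81 ± 0.15 (adjusted p = 1.69e-08), the fatty acyl-CoA transporter gene Abcd2 by 2.02 ± 0.18 (adjusted p = 5.37e-08) and Decr2, the peroxisomal dienoyl-CoA reductase gene, by 1.30 ± 0.12 (adjusted p = 5.66e-08). Limma called 0 of these 10 between genotypes on chow (3 at an unadjusted p under 0.05) and 0 for the diet in wild type (2 at an unadjusted p under 0.05), near the 2.92% and 1.58% of all genes called there.

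Genes that activate polyunsaturated fatty acids or place them in phospholipids were mixed, with 5 of 13 lower, 3 higher and 5 not called, and a median of -0.01. Of all genes 23.0% were lower and 19.2% higher. Mboat7, which puts arachidonic acid into phosphatidylinositol, fell (-0.48 ± 0.07, limma adjusted p = 1.71e-05), and Lpcat3, which puts it into phosphatidylcholine, also fell (-0.44 ± 0.09, adjusted p = 0.00132). The genes of the lists were not recomputed with arrays centred on the hybridization controls, which shifted the all-gene split. Whether falls of this size hold there was not tested. The arachidonate-preferring synthetase Acsl4 rose (1.38 ± 0.23, adjusted p = 0.000113), as did the lysophospholipid acyltransferase Lpcat2 (0.47 ± 0.09, adjusted p = 0.000629). Acsl1 was not analysed here.

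Of 11 measured regulators of the pathway 9 fell, 1 rose and 1 was not called in the knockout on the VLF diet, with a median of -0.75, beside 23.0% of all genes lower and 19.2% higher. Srebf1, the transcription factor gene of lipogenic and desaturase promoters, fell by 1.93 ± 0.17 (limma adjusted p = 4.33e-08) and the carbohydrate-sensing factor gene Mlxipl by 1.68 ± 0.16 (adjusted p = 1.38e-07). Nr1h3, encoding liver X receptor alpha, fell by 0.75 ± 0.07 (adjusted p = 2.21e-07), and Scap, the SREBP escort, by 0.82 ± 0.09 (adjusted p = 4.68e-07). Ppara, the fatty acid receptor that also acts on Fads2, fell by 1.52 ± 0.17 (adjusted p = 8.09e-07). Mlx rose (0.51 ± 0.11, adjusted p = 0.000872). Limma called 0 of the 11 for the diet in wild type (4 at an unadjusted p under 0.05) and 0 between genotypes on chow (3 at an unadjusted p under 0.05), near the 1.58% and 2.92% of all genes called there. Nr1h2 was not analysed here.

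**Figure D5:**
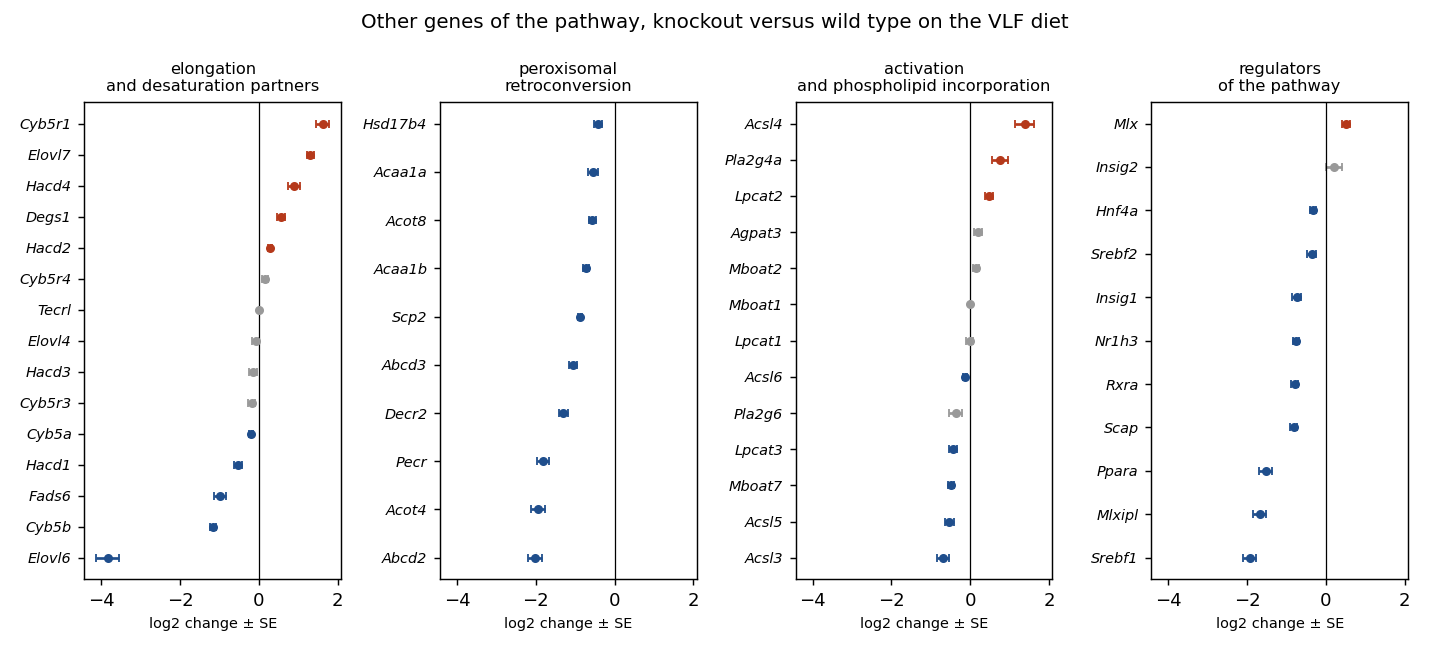
Log2 change with its standard error between VLF-fed knockout and wild-type livers (horizontal axis, 5 livers per group) of the genes of 4 lists around the 9 enzymes. Red and blue points were called higher and lower and grey points were not called, and all 10 genes of peroxisomal retroconversion lay below 0.

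Log2 patterns over the 20 arrays were compared with those of the other members and of 6319 further genes with a mean log2 intensity of 7 or more. Dimmer genes outside the members were not compared. Of those compared, Fads2 lay closest to Fads1, with a root mean square difference of 0.205 between the deviations of both from their own means. Among the 6319 further genes, the closest to Fads1 were 1810008I18Rik (0.294), Sc5d (0.324) and Mme (0.329). The closest to Fads2 were 1810008I18Rik (0.310), Acacb (0.315) and Sc5d (0.350). For Elovl2 they were Cutal (0.235), Acbd4 (0.238) and Cert1 (0.252), for Elovl5 Rflna (0.299), Gpam (0.304) and Pgrmc2 (0.312), and for Elovl3 Slc22a7 (0.463), Fbxo21 (0.512) and Fetub (0.533). The deviations of Elovl3 from its own mean had a root mean square of 0.918, and those of Elovl5 had 0.586, beside 0.873 for Fads1, 0.832 for Fads2 and 0.615 for Elovl2.

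Markers of several other liver cell types moved with the genotype on the VLF diet, beside 19.2% of all genes called higher and 23.0% lower. All 7 macrophage and Kupffer markers rose, with a summed level of 9800 to 16648 in the knockout VLF livers against 4500 to 5431 in the wild-type VLF livers. Of 5 stellate markers 4 rose and 1 fell (Lrat, -0.51), with sums of 4312 to 5561 against 2152 to 2684, and 3 of 4 neutrophil markers rose (749.8 to 4681 against 177 to 216). Of 6 hepatocyte markers 1 fell (Apob, -0.39) and 5 were not called, with sums of 91022 to 94947 against 90617 to 94734. Alb and Apoa1 among them had mean log2 intensities of 14.55 and 14.45, near the top of the range. Quantile normalization holds values there alike across arrays, so the level sum does not measure hepatocyte content. Of 5 sinusoidal endothelial markers 3 fell (Stab2, Kdr and Clec4g), 1 rose (Lyve1) and 1 was not called, with sums of 1570 to 2432 against 1762 to 2163. Both measured erythroid markers fell, with sums of 98.6 to 193 against 217 to 392. Of the remaining lists, 1 of 4 cholangiocyte markers rose and 1 of 3 lymphocyte and 1 of 3 pancreas markers fell. In lists this short, such counts are near the shares of all genes. By limma 0 of 3 adipocyte markers were called (0 at an unadjusted p under 0.05). The actin control's 3' to 5' signal ratio, a sign of RNA integrity, was 1.69 to 1.96 in the knockout VLF arrays, 1.95 to 2.39 in the wild-type VLF arrays, 2.10 to 2.37 in the knockout chow arrays and 2.49 to 3.07 in the wild-type chow arrays. It was thus lower on the VLF diet without overlap in both genotypes. On chow it was also lower in the knockout than in wild type without overlap. On the VLF diet the genotype ranges of the actin ratio overlapped narrowly. The Gapdh ratio was 1.23 to 1.41 in the wild-type VLF arrays and 1.42 to 1.71 in the wild-type chow arrays, also without overlap. In knockout its ranges on the 2 diets overlapped. Between genotypes the Gapdh ratio was lower in the knockout on chow without overlap, and its ranges overlapped on the VLF diet. The part of these in the genotype and diet changes of the 9 enzymes was not tested. In whole liver, fewer cells of a type and less RNA per cell cannot be told apart.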

How the data were processed

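Biotinylated cRNA was made from total RNA of flash-frozen liver, per the labels' protocols. The authors deposited probe set intensity values, taken as linear from their range. The submitters' processing notes name MAS5 and RMA without saying which of them made the values. Each array was scaled to the same median and floored at 16, then put on a log2 scale and quantile-normalized. Without the 64 control probe sets, limma 3.58.1 in R 4.3.3 fitted a mean per group (residual degrees of freedom 16, prior 1.94), with Benjamini-Hochberg adjustment over 45037 probe sets. Of these, 9114 were at the floor throughout and counted as unchanged. A call is an adjusted p under 0.05. The number of arrays limits the precision.

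Probe sets were named by the probe table (34945 named 1 gene, 932 several, 9160 none). The members, lists and tests were chosen with earlier results of these data known. Named genes were the 9 members, Scd1, up to 4 called genes per list with the smallest adjusted p (Ppara, Mlx, Cyb5r3, Lpcat2 and the markers named were added after their values were seen) and the 3 closest genes. The fitting step was tested on simulated data. Figures used Python 3.11.15 and matplotlib 3.10.9.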

Additional observations from a re-analysis of the deposited data

Results flagged for a closer look

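The Elovl3 level of wild-type chow liver 5 was 38.7, far from the 107 to 113 of the other 4 livers of its group. This was 1 of 36 groups examined for a sample far from the others, and chance flags about 1 group in 20.

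The diet change differed between genotypes in 8 of the 9 genes by limma's interaction test. The difference, knockout minus wild type on the log2 scale, was -1.93 for Fads1, -1.94 for Fads2, -1.33 for Elovl2, -1.28 for Elovl3, -1.06 for Elovl5 and -1.01 for Tecr. It was 1.21 for Fads3 and 0.84 for Elovl1. Leaving out 1 array at a time kept the Elovl3 difference between -1.47 and -0.98, with adjusted p up to 0.0496.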

How the results depend on the processing

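Of 465 changes of single genes recomputed under other settings, 430 kept direction and call, 4 lost a call, 22 gained one and 9 changed sign. Of 630 with 1 array left out, 617 kept both, 7 gained a call and 6 changed sign. All sign changes were of uncalled values. These recomputed changes were of the 9 enzymes, and the genes of the pathway and marker lists were not recomputed. With median scaling only, Elovl1 between genotypes on chow turned to 0.089. With arrays centred on the hybridization controls, Hsd17b12 between genotypes on the VLF diet turned to 0.12, its interaction to 0.057, Fads3 and Tecr on chow to -0.11 and -0.036, and Elovl5 under the diet in knockout to 0.27. With the mean of a gene's probe sets, Fads3 and Tecr on chow turned to -0.062 and -0.048, Hsd17b12 under the diet in knockout to -0.017, and the Fads1 minus Fads2 difference to 0.010. Leaving out 1 array gave ranges of -0.16 to 0.083 for Elovl5 under the diet in knockout, -0.027 to 0.14 for Fads3 on chow, -0.091 to 0.036 for Fads3 under the diet in wild type, and -0.12 to 0.037 for Fads1 minus Fads2.

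Genes called for the diet in wild type rose from 3 to 6 with the mean of probe sets and to 6 among probe sets with a mean log2 of 7 or more. They rose to 5 with only the compared groups fitted. The count was 4 with a pseudocount of 16 in place of the floor or with an intensity trend and robust variance. It fell to 2 with arrays centred on the hybridization controls. On chow 1 gene was called between genotypes with median scaling only, and 0 to 1 with 1 array left out. Same-numbered arrays correlated over 0.1 in 0 of 5 pairs between genotypes on either diet, in 2 of 5 for the diet in wild type and for VLF-fed knockout against chow-fed wild type, and in 3 of 5 for the diet in knockout (at most 0.24), so the numbers were not taken to pair the arrays. With the replicate number as a block, the Elovl5 change of VLF-fed knockout against chow-fed wild type gained its call (-0.36, adjusted p = 0.0238). The block left the differences of Fads2 and Fads1 from Fads3 at -3.49 and -3.52, where 5 pairs cannot reach the threshold, and changed no other call. Under control-based centring the all-gene median shifted from -0.02 to 0.10 between genotypes on the VLF diet, from 0.00 to 0.27 for the diet in knockout and from 0.00 to 0.29 for the interaction. Causes were not tested.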
